A study of Mus musculus with 20 samples.

Results

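The renin-angiotensin system is a hormone cascade in which renin, released by juxtaglomerular cells of the kidney, cuts angiotensinogen to angiotensin I. Converting enzymes then trim this peptide to angiotensin II, which raises vascular tone and sodium retention through its receptors. Peptidases of the tubular brush border and other cells break the angiotensins down. Here 9 of its genes were followed by name among the 27827 gene names of a whole mouse genome array: the renin gene Ren1, its substrate Agt, the converting enzymes Ace and Cma1, the receptor genes Agtr1b and Agtr2, and the peptidase genes Anpep, Enpep and Mme. The rule that picks the 9 is a list of gene names by role in the cascade and uses no measured value, although it was drawn up with results of these data known. All 9 had at least 1 probe.

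Kidney RNA came from male C57BL/6 mice of 8 to 12 weeks, with 4 arrays in each of 5 groups. Control mice had neither surgery nor treatment, so the design holds no sham operation. In IRI (ischemia/reperfusion injury), both renal pedicles were clamped for 45 min and the kidney was taken after 6 h of reperfusion. IRI+Hemin mice received 25 mg/kg of Hemin, an inducer of heme oxygenase, by the intraperitoneal route 24 h before the same injury. IPC+IRI mice had 15 min of clamping as ischemic pre-conditioning (IPC) 7 days before the injury. Hemin mice received the drug at the same dose without surgery, and the interval from the dose to the removal of their kidneys is not given in the sources used here. The sources do not say whether an array held RNA of 1 mouse or of a pool, so p-values measure the spread between arrays.

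The log2 expression used below is the log2 of a gene's processed signal over the 75th percentile of its array, so that 0 stands for that percentile. A test was made where the scanner software flagged the gene as well above background on at least 3 of 4 arrays in one of the groups compared, and a difference was called at a limma adjusted p below 0.05. Slide and group cannot be told apart, as no slide held arrays of more than 1 group. Of 3 scan days, the first held Control with IRI, the second IRI+Hemin alone, and the third IPC+IRI with Hemin. Hence IRI vs Control and IPC+IRI vs Hemin are the comparisons within a scan day. The 75th percentile had a median of 204 intensity units in Control and 205 in IRI, and of 263 to 294 in the other groups. IRI+Hemin replicate 4 was at 180, beside 263 to 371 on the other arrays of its group. IRI replicate 4 was at 293, beside 168 to 214. Whether this bears on the values of these arrays was not tested. The flag was set for 57.4% to 67.4% of the gene names of an array, and 4 arrays per group limit the precision.

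The 9 genes were read by 14 probes, and 4 of the genes had more than 1 probe. The following 4 probes are shown because they are the ones on which the reading of a gene with several probes turns. They were taken from the array files, with positions on mm9, and are written 5′ to 3′ in the sense of the transcript. The Ren1 probe ends just past the stop codon, which is in capitals. The Ace and Cma1 probes span 1987 and 1060 bp of the genome with their 60 bases and so cross at least 1 intron.
Ren1, A_51_P316661, chr1:135256659-135256718, plus strand: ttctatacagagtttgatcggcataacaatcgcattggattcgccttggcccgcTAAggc
Ace, A_52_P72297, chr11:105847371-105849357, plus strand: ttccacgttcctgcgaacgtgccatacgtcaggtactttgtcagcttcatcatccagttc
Mme, A_52_P429723, chr3:63143972-63144031, plus strand: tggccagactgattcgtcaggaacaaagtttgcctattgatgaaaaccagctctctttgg
Cma1, A_51_P514029, chr14:56561491-56562550, minus strand: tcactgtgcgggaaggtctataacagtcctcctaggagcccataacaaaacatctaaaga

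Promoter sequence from RefSeq (GRCm38.p6) was matched by symbol for 9 of 9 genes, with 12 windows of 250 bases before a start site, since Ace has 2 annotated starts and Mme has 3. Both strands were searched for TATAAA, the TATA box core, for GGGCGG, a GC box read by Sp factors, and for ACGTG, the core of a hypoxia response element. Each motif was counted on its own, overlapping matches included. TATAAA was found in the windows of Ren1, Agt, Agtr1b and Enpep and in that of the first Ace start, and in 12.4% of all 32851 promoter windows. Its first base lay 29 bases before the start site in Ren1, 30 in Agt, 31 in Agtr1b, 31 in Ace and 52 in Enpep, on the opposite strand in Ace and Enpep. GGGCGG was found at the first Ace start, in Anpep and at all 3 Mme starts, and in 32.7% of all windows. ACGTG was in none of the 12 windows and in 16.6% of all. The share of G and C ran from 38.4% in Agtr2 to 73.6% at the third Mme start, beside a median of 52.4% over all windows.

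The upstream windows of Agtr1b, Cma1 and Ace are given here because these 3 genes had the largest falls against Control, with TATAAA and GGGCGG of either strand in capitals. A match is a description of the letters and not a site.
Agtr1b, chr3:20367178-20367427, minus strand: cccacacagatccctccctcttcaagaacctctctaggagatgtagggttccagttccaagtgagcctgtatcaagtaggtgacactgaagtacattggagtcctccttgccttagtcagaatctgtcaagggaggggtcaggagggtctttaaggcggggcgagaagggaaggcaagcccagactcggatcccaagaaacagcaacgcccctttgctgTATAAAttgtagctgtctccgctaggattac
Cma1, chr14:55944676-55944925, minus strand: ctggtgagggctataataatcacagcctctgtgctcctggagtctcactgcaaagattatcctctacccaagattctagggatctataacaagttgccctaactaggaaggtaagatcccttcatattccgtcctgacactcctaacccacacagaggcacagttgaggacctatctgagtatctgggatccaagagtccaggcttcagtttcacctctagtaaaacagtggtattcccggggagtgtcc
Ace, chr11:105967698-105967947, plus strand: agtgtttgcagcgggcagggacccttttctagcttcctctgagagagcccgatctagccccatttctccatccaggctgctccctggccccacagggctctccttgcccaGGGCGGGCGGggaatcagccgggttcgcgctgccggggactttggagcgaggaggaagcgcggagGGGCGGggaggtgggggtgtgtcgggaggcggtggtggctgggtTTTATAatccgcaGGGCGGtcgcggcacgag

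**Figure D1:**
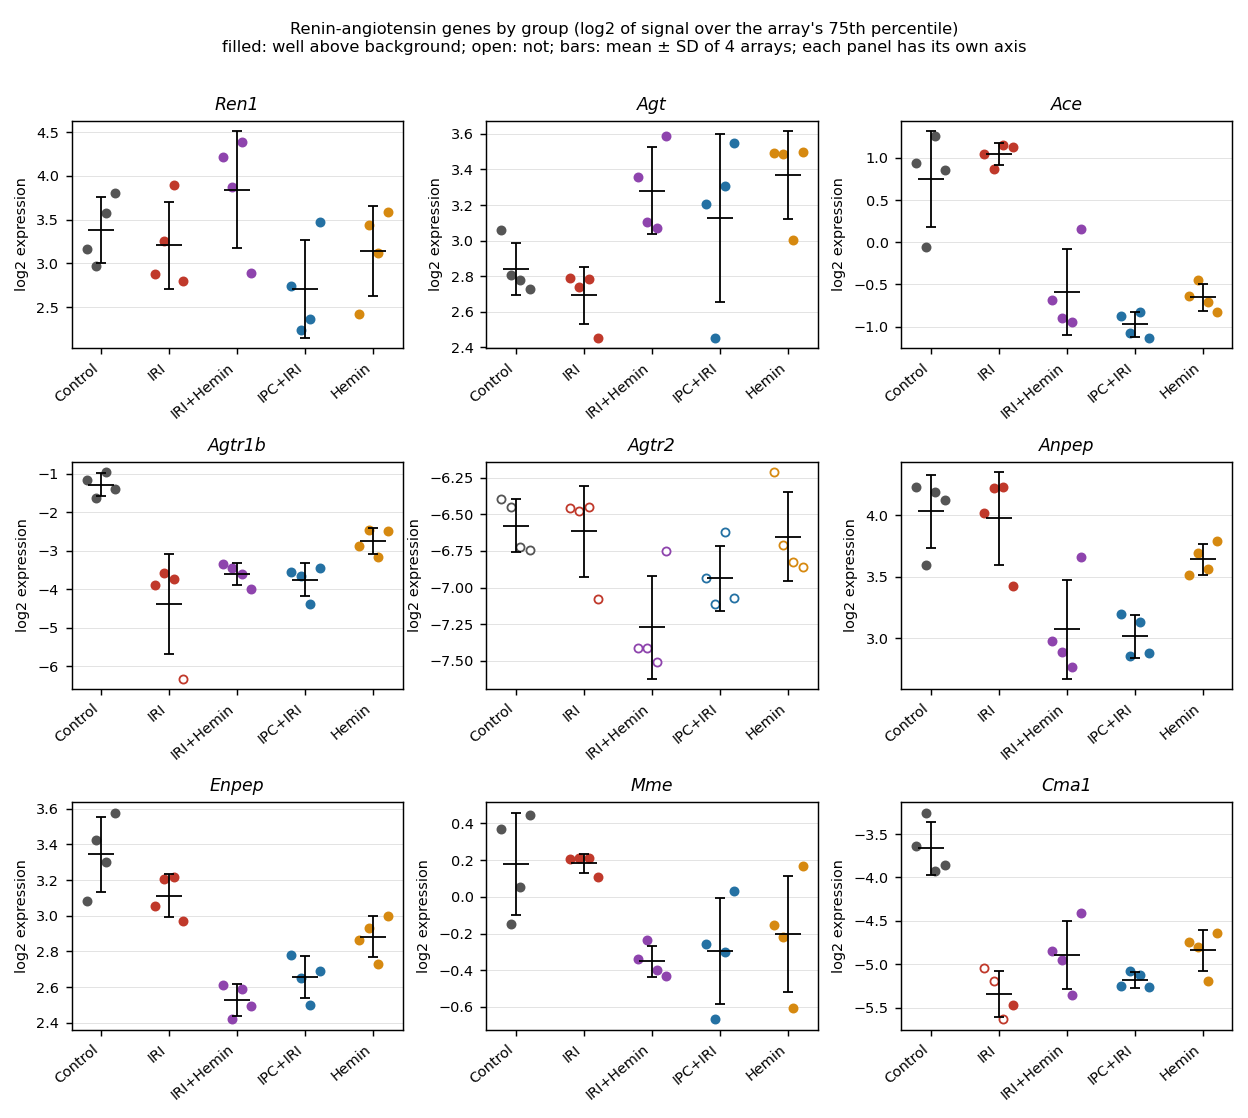
Log2 expression of the 9 renin-angiotensin genes (y axis, log2 of signal over the array's 75th percentile) in the 5 groups (x axis). Each point is an array, filled where the gene was well above background, and the bars give the mean and SD of 4 arrays. Agtr1b and Cma1 were highest in Control, Ace was high in Control and IRI and lower elsewhere, and Agtr2 had open points on all 20 arrays.

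After injury alone, 2 of the 8 genes tested were lower and none was higher. In IRI vs Control, Agtr1b and Cma1 were lower, well above background on 3 of 4 and 1 of 4 IRI arrays, while Ren1, Agt, Ace, Anpep, Enpep and Mme did not pass the threshold. Over all 17719 genes tested in that comparison, 35.0% were called lower and 16.4% higher. The median log2 difference was -0.16 for the 8 genes and -0.19 for all genes. Both calls concern dim genes, and with a filter that asks for all arrays of both groups to be well above background neither gene was tested.

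With pre-conditioning, 6 of the 8 genes were lower than in Control. Counts here are of the mean over a gene's probes, and they include Mme, whose 2 probes disagree in direction as described further on. In IPC+IRI vs Control the lower genes were Agtr1b, Ace, Cma1, Anpep, Enpep and Mme by that mean, none was higher, and of the 18352 genes tested 33.7% were lower and 22.2% higher. The median log2 difference was -0.85 for the 8 genes, beside -0.11 for all genes. In IPC+IRI vs IRI, Ace, Anpep, Enpep and, by the mean of its disagreeing probes, Mme were lower and no gene was higher, with 17.9% of 17668 genes lower, 25.9% higher, and medians of -0.47 and 0.090.

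Under Hemin, Ace and Enpep were lower and Agt was higher in both comparisons that add the drug. In IRI+Hemin vs IRI, Ace, Anpep, Enpep and, by the same mean, Mme were lower and Agt was higher, with 18.3% of 17835 genes called lower and 25.8% higher. The median was -0.045 for the 8 genes and 0.076 for all genes. In Hemin vs Control, Ace, Agtr1b, Enpep and Cma1 were lower and Agt was higher, where 17.6% of 18579 genes were called lower and 18.3% higher, with medians of -0.43 and 0.055. Both comparisons with IRI share the IRI arrays, and those with Control share the Control arrays, so their results are not independent.

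**Figure D2:**
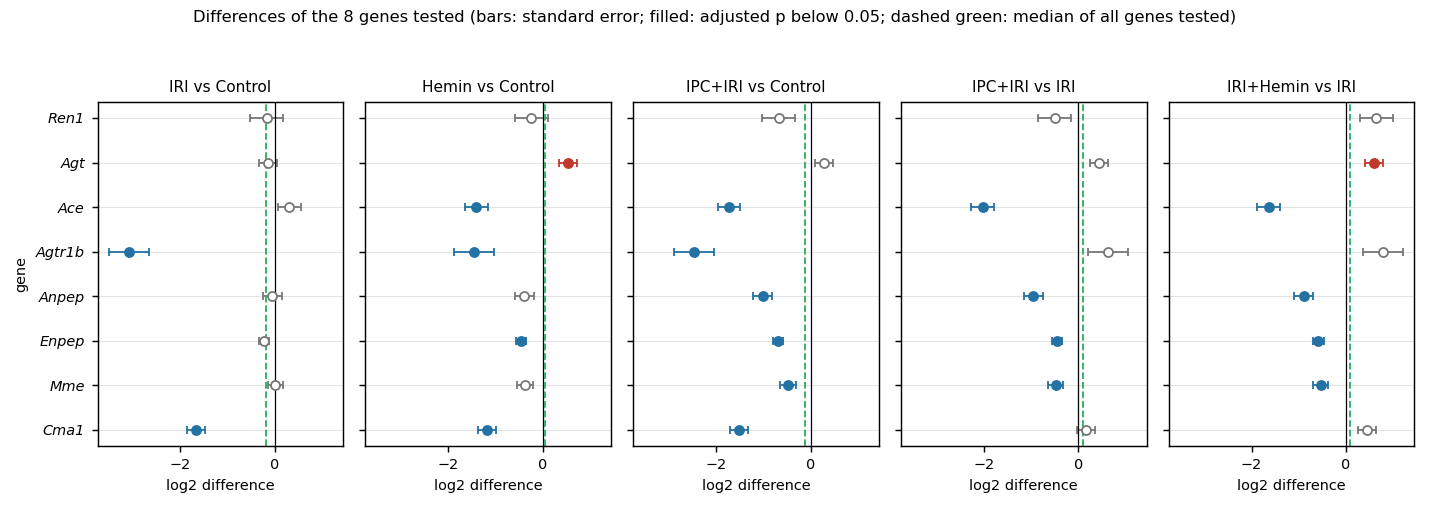
Log2 difference of the 8 genes tested (x axis) in 5 comparisons, 1 panel each, with the standard error of the limma fit as bars. Filled points passed an adjusted p of 0.05 (blue lower, red higher), and the dashed green line is the median of all genes tested. Ace was at 0.30 in IRI vs Control and was lower in the 4 other panels.

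Agt encodes angiotensinogen, the substrate of the cascade, made mainly in liver and also in the proximal tubule. Its single probe gave a log2 expression of 3.06, 2.81, 2.78 and 2.73 on the Control arrays and of 2.79, 2.74, 2.79 and 2.45 on the IRI arrays. The IRI+Hemin arrays read 3.36, 3.10, 3.07 and 3.59, and the Hemin arrays 3.49, 3.49, 3.00 and 3.50. All 4 IRI+Hemin arrays lay above all 4 IRI arrays, while 1 Hemin array lay below the highest Control array. IPC+IRI spread most, from 2.45 to 3.55. Agt was higher in IRI+Hemin than in IRI by 0.59 (standard error 0.19, limma adjusted p = 0.0185) and higher in Hemin than in Control by 0.53 (standard error 0.19, adjusted p = 0.0392). With IRI replicate 4 or IRI+Hemin replicate 4 left out, the first of these had an adjusted p of 0.0559 and 0.0645. The second did not pass with any of 6 single arrays left out, under quantile normalization (0.38, adjusted p = 0.0978), with scaling to probes detected on all arrays (0.42, adjusted p = 0.0762) or without the filter on dim genes (adjusted p = 0.0504). In IPC+IRI vs IRI the difference was 0.44 (standard error 0.19, adjusted p = 0.0726), and it passed with IPC+IRI replicate 2 left out (0.66, adjusted p = 0.0031), under normexp (0.65, adjusted p = 0.0117), in the deposited matrix (0.58, adjusted p = 0.019) and without normalization between arrays (0.76, adjusted p = 0.0107). The difference in IPC+IRI vs Control was 0.29 (standard error 0.19, adjusted p = 0.216), and it passed without that replicate (0.51, adjusted p = 0.012) and without normalization between arrays (0.75, adjusted p = 0.00953).

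Ren1 encodes renin, whose cut of angiotensinogen limits the rate of the cascade. Log2 expression was 3.16, 2.98, 3.57 and 3.81 in Control, 2.88, 3.26, 3.89 and 2.80 in IRI, and 2.42, 3.43, 3.12 and 3.58 in Hemin. In IRI+Hemin it was 4.22, 3.87, 4.39 and 2.89, and in IPC+IRI 2.75, 2.24, 2.36 and 3.48. IRI+Hemin had the highest mean (3.84 ± 0.67, SD, n = 4) and IPC+IRI the lowest (2.71 ± 0.56), and all 5 groups overlapped. Ren1 passed in no comparison, with a difference of 0.64 (standard error 0.35, limma adjusted p = 0.148) in IRI+Hemin vs IRI and of -0.67 (standard error 0.35, adjusted p = 0.111) in IPC+IRI vs Control. One array decided several of these values. Without IRI+Hemin replicate 4, the difference was 0.95 (adjusted p = 0.0303) against IRI and 1.02 (adjusted p = 0.0196) against Hemin. Without IPC+IRI replicate 4, it was -0.93 (adjusted p = 0.0357) in IPC+IRI vs Control. With normexp background correction, which models signal and background together, both IRI+Hemin differences passed (1.04 and 0.92, adjusted p = 0.0133 and 0.03).

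The pair of Ren1 probes moved in parallel. The probe at the 3′ end of the coding sequence, printed above, also lists the accession of Ren2, a near-identical renin gene that C57BL/6 mice lack. Its group means ran from 3.62 in IPC+IRI to 4.74 in IRI+Hemin, and those of the upstream probe from -0.45 to 0.99 in the same groups. Fitted alone, the upstream probe was lower in IPC+IRI than in Control by 0.93 (standard error 0.36, limma adjusted p = 0.0333) and higher in IRI+Hemin than in Hemin by 1.04 (standard error 0.36, adjusted p = 0.0248). The other probe passed in neither comparison (adjusted p = 0.12 and 0.123). Over all probes tested singly, 32.8% were lower in the first of these comparisons and 17.1% higher in the second. A list of 10 genes of renin cells and mural cells was well above background on all 20 arrays, and its summed signal was 13.7 to 15.95 times the 75th percentile in Control, 17.8 to 22.2 in IRI, 15.8 to 19.8 in IRI+Hemin, 11.6 to 17.0 in IPC+IRI and 13.1 to 15.1 in Hemin. In IRI+Hemin vs IRI, 2 of the 10 were higher, Akr1b7 by 1.45 (standard error 0.31, adjusted p = 0.0012) and Gja5 by 0.45 (standard error 0.14, adjusted p = 0.0117), both known from renin cells, and 3 were lower, the mural genes Acta2, Tagln and Mcam. Among the 10, 3 were lower and none higher in IPC+IRI vs Control, 4 and none in IPC+IRI vs IRI, and 2 lower and 1 higher in Hemin vs Control. Its part in the Ren1 values was not tested. In whole kidney RNA, fewer cells of a type and less RNA per cell cannot be told apart, for this gene and for those that follow.

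Ace encodes angiotensin-converting enzyme, carried by endothelium and by the brush border of the proximal tubule. On the log2 scale it stood at 0.94, -0.06, 1.26 and 0.86 in Control and at 1.04, 0.86, 1.15 and 1.13 in IRI. It stood at -0.69, -0.90, -0.94 and 0.16 in IRI+Hemin, at -0.87, -1.07, -0.82 and -1.13 in IPC+IRI and at -0.64, -0.44, -0.71 and -0.82 in Hemin. All arrays of IPC+IRI and Hemin lay below all arrays of Control and IRI, and all IRI+Hemin arrays lay below those of IRI, although replicate 4 lay above Control replicate 2. Ace fell by 2.02 (4.06-fold, standard error 0.24, limma adjusted p = 1.04e-05) in IPC+IRI vs IRI and by 1.72 (3.31-fold, standard error 0.24, adjusted p = 1.49e-05) in IPC+IRI vs Control. It fell by 1.64 (3.12-fold, standard error 0.24, adjusted p = 5.45e-05) in IRI+Hemin vs IRI and by 1.40 (2.65-fold, standard error 0.24, adjusted p = 0.000426) in Hemin vs Control. These 4 differences passed under all 19 alternatives run for each, single arrays left out included. IRI vs Control had a difference of 0.30 (standard error 0.24, adjusted p = 0.318).

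The 3 groups with low Ace were also those scanned on the other 2 days, and scan day cannot be told apart from group in the 4 comparisons that were called. Both comparisons within a scan day missed the threshold, the other being IPC+IRI vs Hemin (-0.32, standard error 0.24, limma adjusted p = 0.313). Of the 3 Ace probes, A_51_P310523 was not well above background on any of 20 arrays. The other two were on all 20 and moved in the same direction. The coding probe printed above fell by 2.93 (standard error 0.30, adjusted p = 2.57e-06) in IPC+IRI vs IRI and by 2.12 (standard error 0.30, adjusted p = 0.000107) in Hemin vs Control. Probe A_52_P68028 (chr11:105850398-105850457) fell by 1.85 and 1.27 (standard error 0.24 each, adjusted p = 1.54e-05 and 0.000728). Of all probes tested singly, 20.1% were lower in the first comparison and 18.4% in the second.

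Endothelial genes were read beside Ace. Of 10 such genes, all tested, none was called in Hemin vs Control, 3 were higher and 1 lower in IRI+Hemin vs IRI, and 6 were lower in IPC+IRI vs IRI. Against Control, 2 were higher and 3 lower in IPC+IRI, with Tek at -1.62 (standard error 0.24, limma adjusted p = 2.07e-05) and Tie1 at -1.22 (standard error 0.21, adjusted p = 0.000123). Their summed signal was 24.3 to 30.4 times the 75th percentile in Control, 33.5 to 38.4 in IRI, 37.9 to 43.1 in IRI+Hemin, 17.0 to 39.0 in IPC+IRI and 29.5 to 37.9 in Hemin. In IRI vs Control 2 were higher and 2 lower. Cdh5 rose by 1.37 (standard error 0.27, limma adjusted p = 0.000424) and Robo4 by 1.18 (standard error 0.18, adjusted p = 4.34e-05), while Tek fell by 0.99 (standard error 0.23, adjusted p = 0.00193) and Kdr by 0.46 (standard error 0.17, adjusted p = 0.0292). Their part in the values of Ace was not tested.

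**Figure D3:**
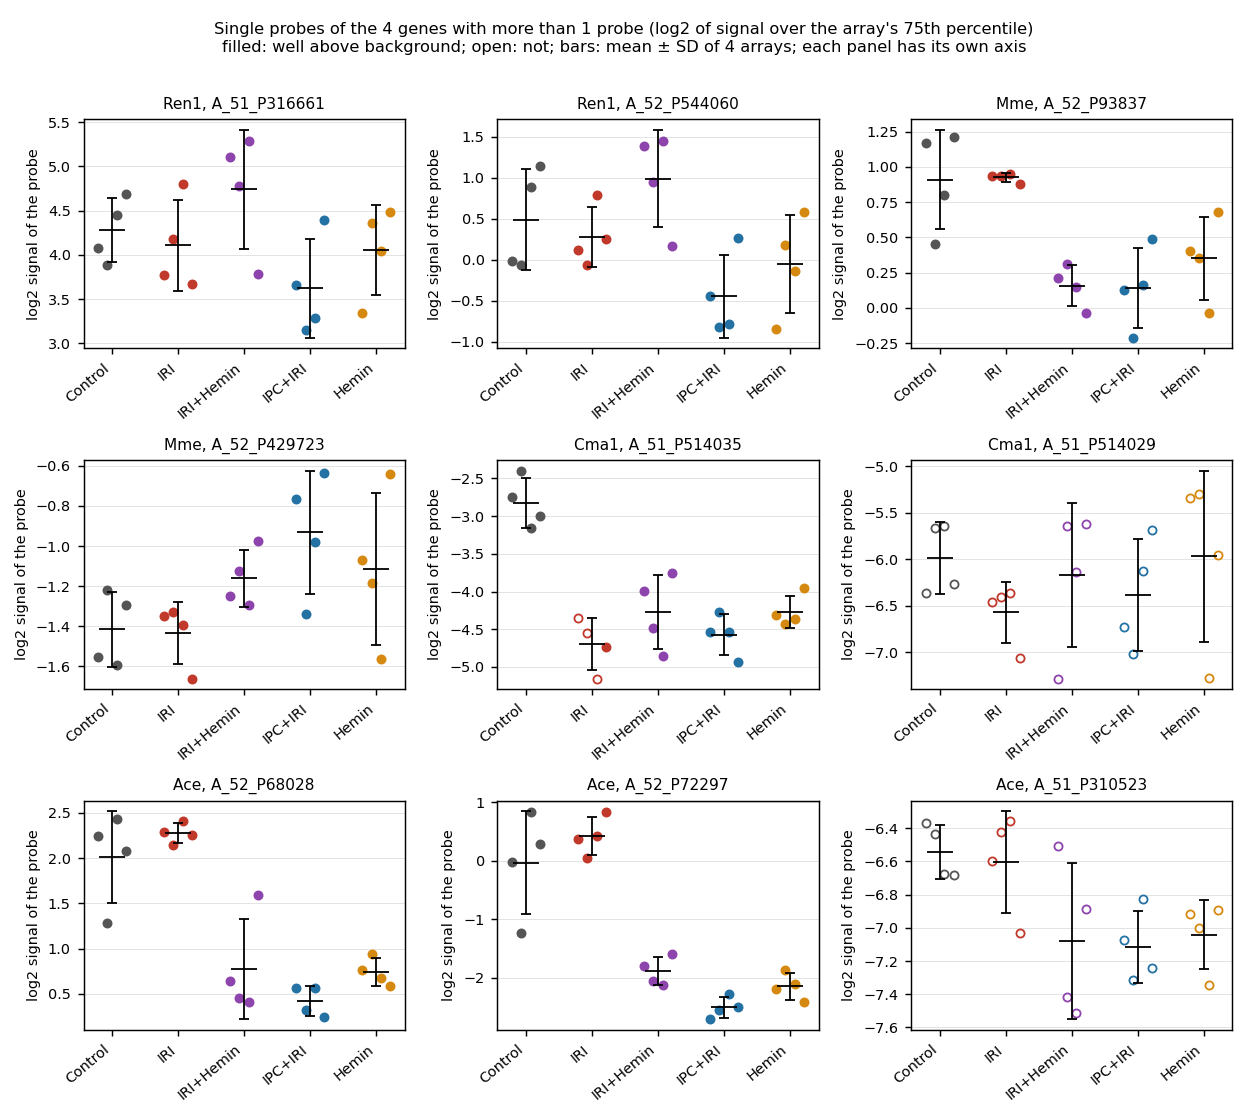
Log2 signal (y axis, over the array's 75th percentile) of the 9 single probes of Ren1, Mme, Cma1 and Ace in the 5 groups (x axis), with points for arrays, filled where well above background, and bars for the mean and SD of 4 arrays. Both Ren1 probes and the detected pair of Ace probes moved together, while the Mme probes moved in opposite directions and 1 probe each of Cma1 and Ace was at background on all 20 arrays.

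Cma1 encodes the mast cell chymase, which forms angiotensin II from angiotensin I without Ace. Only its probe A_51_P514035 (chr14:56560454-56560513) was read above background, on 17 of 20 arrays, whereas the intron-spanning probe printed above was on none. The detected probe gave log2 signals of -2.74, -2.40, -3.16 and -3.00 in Control, of -4.35, -4.55, -5.15 and -4.74 in IRI and of -4.31, -4.43, -4.37 and -3.96 in Hemin. It gave -3.99, -4.48, -4.85 and -3.76 in IRI+Hemin and -4.53, -4.28, -4.54 and -4.94 in IPC+IRI. Every Control array lay above every array of the 4 other groups, which overlapped each other. In IRI the gene was well above background on 1 of 4 arrays only, against 4 of 4 in each other group.

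Averaged over its probes, one of them at background throughout, Cma1 fell by 1.67 in IRI vs Control with 1 of 4 IRI arrays above background (standard error 0.19, limma adjusted p = 1.69e-06), by 1.51 in IPC+IRI vs Control (standard error 0.19, adjusted p = 5.05e-06) and by 1.18 in Hemin vs Control (standard error 0.19, adjusted p = 0.00028). With a background correction by normexp, none of these passed. The difference was then 0.0026 in IRI (adjusted p = 0.998), -0.46 in IPC+IRI (adjusted p = 0.164) and -0.54 in Hemin (adjusted p = 0.125). IRI+Hemin vs IRI was at 0.45 (standard error 0.19, adjusted p = 0.0633), and it passed under 4 alternatives, with adjusted p-values from 0.00457 (0.82, without normalization between arrays) to 0.0412. Of 10 mast cell genes, Cpa3, Tpsab1, Mcpt2 and Ms4a2 were well above background on 0 of 20 arrays and Mcpt1 and Mcpt4 on 1 each. Of the 4 that were tested in IRI vs Control, 3 were lower and 1 was higher. The tryptase gene Tpsb2, on 4 of 4 Control and 0 of 4 IRI arrays, was at least 2.93-fold lower in IRI (adjusted p = 0.00209). This bound sets the Control mean against the higher, on each IRI array, of the gene's own signal and the lowest signal well above background. For Tpsb2 its own signal was the higher, so the bound equals the fitted difference of -1.55 (standard error 0.37) and carries its error. Hdc, which makes histamine in several cell types, rose by 2.61 (standard error 0.41, adjusted p = 4.47e-05), with 1 of 4 Control arrays above background. The summed signal of the 10 was 0.868 to 1.10 times the 75th percentile in Control, 0.707 to 0.897 in IRI, 0.594 to 0.996 in IRI+Hemin, 0.757 to 1.10 in IPC+IRI and 0.660 to 0.823 in Hemin. Their part in the fall of Cma1 was not tested.

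Agtr1b encodes a subtype of the type 1 receptor of angiotensin II, known mostly from the adrenal gland. Its single probe (chr3:20214766-20214825) gave a log2 expression of -1.17, -1.64, -0.96 and -1.41 in Control, the highest of the 5 groups. Hemin followed with -2.89, -2.47, -3.16 and -2.49, and every Hemin array lay below every Control array. IRI+Hemin read -3.35, -3.45, -3.61 and -4.01, IPC+IRI -3.54, -3.66, -4.37 and -3.44, and IRI -3.90, -3.59, -3.73 and -6.32. These 3 groups overlapped each other and lay below all Control and Hemin arrays. IRI replicate 4 was the only array of the 20 on which the probe was not well above background.

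Agtr1b fell by 3.09 in IRI vs Control (standard error 0.43, limma adjusted p = 1.34e-05), and by 2.45 with IRI replicate 4 left out (adjusted p = 7.45e-07). Under normexp the fall was 0.88 (adjusted p = 0.00908). It fell by 2.46 in IPC+IRI vs Control (5.5-fold, standard error 0.43, adjusted p = 0.000114) and by 1.46 in Hemin vs Control (2.74-fold, standard error 0.43, adjusted p = 0.0136), and under normexp these were at -1.19 (adjusted p = 0.000533) and -0.92 (adjusted p = 0.00833). The fall in Hemin did not pass without normalization between arrays (-0.89, adjusted p = 0.0706). Neither IPC+IRI vs IRI (0.63, standard error 0.43, adjusted p = 0.239) nor IRI+Hemin vs IRI (0.78, standard error 0.43, adjusted p = 0.147) passed. Both values rest on IRI replicate 4, without which they were -0.014 (adjusted p = 0.967) and 0.14 (adjusted p = 0.665), and under normexp they were -0.31 (adjusted p = 0.287) and -0.30 (adjusted p = 0.281). Without normalization between arrays IRI+Hemin vs IRI passed (1.15, adjusted p = 0.0279). Between IPC+IRI and Hemin, 2 groups of 1 scan day whose arrays did not overlap, Agtr1b was at -1.0 (standard error 0.43, adjusted p = 0.0742), and it passed with only the compared arrays fitted (adjusted p = 0.0117) and in the deposited matrix (-1.10, adjusted p = 0.00151).

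Adrenal genes were read beside Agtr1b because the adrenal gland lies on the kidney. Among 9 adrenal cortex genes, the steroid enzyme genes Cyp11a1 and Cyp11b2 reached the background flag on 0 of 20 arrays and Cyp21a1 on 7. The summed signal of the 9 was 2.86 to 3.24 times the 75th percentile in Control, 1.47 to 1.98 in IRI, 2.88 to 4.36 in IRI+Hemin, 1.81 to 2.30 in IPC+IRI and 2.59 to 2.93 in Hemin. Akr1b7 stands in this list and in that of renin cells, and its mean log2 expression was -0.78 in Control and 1.03 in IRI+Hemin, and Star (-4.98 and -3.66, on 1 and 3 of 4 arrays above background) and Nr5a1 (-3.59 and -3.25) were also higher in IRI+Hemin by their means. Hsd3b1 (-1.10 and -2.32), Hsd3b6 (0.43 and -0.35) and Mc2r (-1.18 and -3.50) were lower by theirs, and this pair of groups was not tested. In IRI vs Control 4 of the 6 that were tested were lower and 1 was higher, with Hsd3b1 at -1.47 and Hsd3b6 at -1.37 against Control (standard error 0.28 and 0.27, limma adjusted p = 0.000267 and 0.000415). Of 6 adrenal medulla genes, Th was on 0 of 20 arrays, and the 2 of 3 tested that were lower in IRI were Dbh (-1.05, standard error 0.33, adjusted p = 0.0124) and Chga, on 3 of 4 Control and 0 of 4 IRI arrays (at least 1.83-fold, adjusted p = 0.000282). The medulla list summed to 0.270 to 0.315 in Control, 0.146 to 0.177 in IRI, 0.121 to 0.216 in IRI+Hemin, 0.130 to 0.178 in IPC+IRI and 0.178 to 0.231 in Hemin. The part of these genes in the values of Agtr1b was not tested.

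Agtr2, the type 2 receptor gene, is expressed strongly in the fetus and little in the adult kidney. Its probe (chrX:21065564-21065623) was not well above background on any of the 20 arrays, with values between -7.51 and -6.21. It was not tested, and no difference between groups is given.

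For Agtr1b and Cma1 the interaction of injury and Hemin passed the threshold, in values that rest on an IRI group in part at background (3 of 4 and 1 of 4 arrays above it). The injury change in untreated mice (IRI minus Control) was set against that in treated mice (IRI+Hemin minus Hemin) by an interaction term, in which 5.71% of the 19064 genes tested were called higher and 1.95% lower. Both genes were called higher, and none of the 8 was lower. For Agtr1b the change was -3.09 without and -0.85 with Hemin, an interaction of 2.24 (standard error 0.61, limma adjusted p = 0.0306), and of 1.59 (adjusted p = 0.00638) with IRI replicate 4 left out. For Cma1 it was -1.67 without and -0.050 with Hemin, an interaction of 1.62 (standard error 0.27, adjusted p = 0.00124). In both genes the Hemin group already lay below Control, while IRI and IRI+Hemin overlapped. The interaction of Agtr1b had adjusted p-values of 0.0533 to 0.0696 with any of 6 single arrays left out and of 0.0711 without normalization between arrays. Under normexp neither gene passed (0.62 and 0.056, adjusted p = 0.549 and 0.985).

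**Figure D4:**
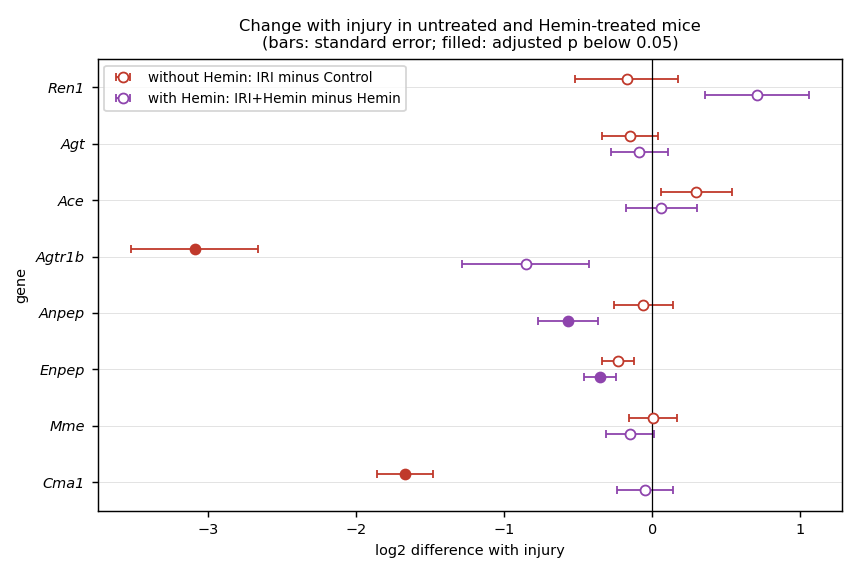
Log2 difference with injury (x axis) of the 8 genes tested (y axis), in red for IRI minus Control and in purple for IRI+Hemin minus Hemin, with standard errors as bars and filled points at an adjusted p below 0.05. Agtr1b and Cma1 fell with injury in untreated mice, by 3.09 and 1.67, and their changes in Hemin-treated mice were -0.85 and -0.050. In IRI, Agtr1b was well above background on 3 of 4 arrays and Cma1 on 1 of 4, so the sizes of these falls are uncertain.

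Enpep encodes aminopeptidase A, which shortens angiotensin II to angiotensin III. Its log2 expression was 3.08, 3.42, 3.30 and 3.58 in Control and 3.05, 3.21, 3.22 and 2.97 in IRI. It was 2.61, 2.42, 2.59 and 2.49 in IRI+Hemin, 2.78, 2.65, 2.50 and 2.69 in IPC+IRI and 2.86, 2.93, 2.73 and 3.00 in Hemin. The IRI+Hemin and IPC+IRI arrays all lay below the Control and IRI arrays, Hemin lay below Control, and Control and IRI overlapped. IRI vs Control was at -0.23 (standard error 0.11, limma adjusted p = 0.085), and passed under quantile normalization (-0.34, adjusted p = 0.0106), scaling to probes detected on all arrays (-0.32, adjusted p = 0.0114), the deposited matrix (-0.40, adjusted p = 0.00982) and without Control replicate 1 (adjusted p = 0.0222). Enpep fell by 0.69 in IPC+IRI vs Control (standard error 0.11, limma adjusted p = 5.01e-05), by 0.46 in IPC+IRI vs IRI (adjusted p = 0.00277), by 0.58 in IRI+Hemin vs IRI (adjusted p = 0.000421) and by 0.46 in Hemin vs Control (adjusted p = 0.00378). Without normalization between arrays none of these 4 passed, and the difference in Hemin vs Control turned to 0.10 (adjusted p = 0.715). That setting moved the median of all genes to between 0.35 and 0.62 in these comparisons. Under normexp the falls in IPC+IRI vs IRI (adjusted p = 0.273) and Hemin vs Control (adjusted p = 0.161) did not pass. IPC+IRI vs Hemin was at -0.23 (adjusted p = 0.115), and passed in the deposited matrix (-0.33, adjusted p = 0.0415).

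Anpep encodes aminopeptidase N, which takes angiotensin III further. The log2 values were 4.22, 3.59, 4.19 and 4.13 in Control and 4.02, 4.22, 4.23 and 3.42 in IRI. They were 2.98, 2.89, 2.77 and 3.66 in IRI+Hemin, 3.20, 2.86, 3.13 and 2.88 in IPC+IRI and 3.52, 3.70, 3.56 and 3.79 in Hemin. All IPC+IRI arrays lay below those of Control, IRI and Hemin, and in IRI+Hemin replicate 4 reached into the range of each of those groups. Anpep fell by 1.01 in IPC+IRI vs Control (2.02-fold, standard error 0.20, limma adjusted p = 0.000381), by 0.96 in IPC+IRI vs IRI (1.94-fold, standard error 0.20, adjusted p = 0.00106) and by 0.90 in IRI+Hemin vs IRI (1.86-fold, standard error 0.20, adjusted p = 0.00167). The last of these missed the threshold without normalization between arrays (-0.53, adjusted p = 0.0501). Hemin vs Control was at -0.39 (standard error 0.20, adjusted p = 0.139), and passed with Control replicate 2 left out (-0.54, adjusted p = 0.0428), under quantile normalization (-0.56, adjusted p = 0.0254) and with scaling to probes detected on all arrays (-0.50, adjusted p = 0.0473). Within the shared scan day, Anpep was lower in IPC+IRI than in Hemin by 0.62 (standard error 0.20, adjusted p = 0.0216), the single gene of the 8 called there, where 24.4% of 18544 genes were lower and 12.6% higher. That call was lost with any of 4 single arrays left out (adjusted p from 0.0505 to 0.0609).

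With injury in Hemin-treated mice, Anpep and Enpep were the 2 genes of the 8 called lower, and none was higher. In IRI+Hemin vs Hemin, 29.5% of 18634 genes were lower and 15.5% higher, and the median was -0.12 for the 8 genes and -0.18 for all. Agtr1b, whose IRI+Hemin arrays all lay below the Hemin arrays, was at -0.85 (standard error 0.43, limma adjusted p = 0.113), and passed with only the compared arrays fitted (adjusted p = 0.00882) and in the deposited matrix (-0.88, adjusted p = 0.00603). Anpep fell by 0.57 (standard error 0.20, adjusted p = 0.0292) and Enpep by 0.35 (standard error 0.11, adjusted p = 0.0146). The call of Anpep was lost with any of 5 single arrays left out (adjusted p from 0.0618 to 0.0945) and under normexp (adjusted p = 0.128), and that of Enpep without normalization between arrays (-0.41, adjusted p = 0.195).

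Mme encodes neprilysin, a membrane peptidase that cuts angiotensin I and other small peptides. The mean over its probes was lower in IPC+IRI vs IRI (-0.48, standard error 0.16, limma adjusted p = 0.0237), IPC+IRI vs Control (-0.48, standard error 0.16, adjusted p = 0.0192) and IRI+Hemin vs IRI (-0.54, standard error 0.16, adjusted p = 0.0131). Those falls came from 1 of the 2 probes. Probe A_52_P93837 (chr3:63184793-63184852) read 1.17, 0.46, 0.80 and 1.21 in Control, 0.94, 0.94, 0.95 and 0.88 in IRI, and 0.12, -0.21, 0.16 and 0.49 in IPC+IRI. It fell by 0.79 in IPC+IRI vs IRI (standard error 0.18, adjusted p = 0.00153). The coding probe printed above read -1.35, -1.33, -1.40 and -1.66 in IRI and -0.77, -1.34, -0.98 and -0.64 in IPC+IRI, and rose by 0.50 (standard error 0.18, adjusted p = 0.0266), in a comparison where 26.4% of all probes tested singly were higher and 20.1% lower. No direction for the gene can be given from probes that disagree, and with the mean of the log2 values over probes none of the 3 differences passed. Of 19 alternatives, 6 ended the call in IPC+IRI vs IRI, 7 in IPC+IRI vs Control and 4 in IRI+Hemin vs IRI. Hemin vs Control was at -0.38 (standard error 0.16, adjusted p = 0.0769), and passed under 4 alternatives.

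Markers of the proximal tubule, where Anpep, Enpep and Mme line the brush border, were read beside them. Of 10 such genes, 3 were lower in IRI vs Control, among them Slc5a12 at -1.69 (standard error 0.22, limma adjusted p = 8.58e-06) and Lrp2 at -0.97 (standard error 0.10, adjusted p = 5.23e-07). In IPC+IRI vs Control 7 were lower and none was higher, in IPC+IRI vs IRI 4 were lower and 3 higher, in IRI+Hemin vs IRI 3 and 3, and in Hemin vs Control 2 and 0. The summed signal was 905 to 1097 times the 75th percentile in Control, 693 to 1056 in IRI, 608 to 759 in IRI+Hemin, 715 to 922 in IPC+IRI and 562 to 873 in Hemin. A gene with no usable signal counts as 0 in the sum, and Gpx3 (mean log2 expression 8.08 in Hemin) entered on 3 of 4 Hemin arrays only. The lower end of the Hemin range is therefore not comparable with the other groups, and the Hemin median was 845. The part of the proximal tubule markers in the peptidase values was not tested.

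Other brush border peptidases gave a mixed picture. Of 6 tested, 2 were lower in IRI vs Control, namely Xpnpep2 by 0.65 (standard error 0.26, limma adjusted p = 0.0439) and Dpp4 by 0.48 (standard error 0.13, adjusted p = 0.00423). In IPC+IRI vs Control 3 were lower, in IPC+IRI vs IRI 1 was lower, in IRI+Hemin vs IRI 4 were lower and 1 higher, and in Hemin vs Control none was lower and 2 were higher. The medians of the 6 in these comparisons were -0.14, -0.45, -0.30, -0.50 and 0.045. The summed signal of the 7 on the array, of which Ace3 was at background on all 20, was 136 to 148 times the 75th percentile in Control, 141 to 170 in IRI, 120 to 236 in IRI+Hemin, 109 to 139 in IPC+IRI and 135 to 166 in Hemin.

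Beyond the 9 genes, 16 further genes of the angiotensin and kinin peptides were on the array and 15 were tested. In IRI vs Control 3 were lower, where 35.0% of all genes were, and none was higher, with a median of -0.082 beside -0.19 for all genes. Against Control, 7 were lower in IPC+IRI (33.7% of all genes) and none higher, with a median of -0.45 beside -0.11. Against IRI, 4 of 14 were lower in IPC+IRI (17.9% of all genes) and none higher, with a median of -0.26 beside 0.090. In IRI+Hemin vs IRI 5 of 14 were lower and 2 higher (18.3% and 25.8% of all genes), with a median of -0.21 beside 0.076. In Hemin vs Control 3 were lower (17.6% of all genes) and none higher, with a median of -0.25 beside 0.055.

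Agtrap, whose product binds the type 1 receptor and promotes its removal from the cell surface, fell by 0.61 in IRI vs Control (standard error 0.14, limma adjusted p = 0.00174) and by 0.45 in IPC+IRI vs Control (adjusted p = 0.0128). It was higher in IRI+Hemin than in IRI by 0.54 (adjusted p = 0.00562), and its change with injury differed between Hemin-treated and untreated mice by 0.84 (standard error 0.20, adjusted p = 0.0165). Mas1, a receptor gene for a shortened angiotensin, was lower in IRI+Hemin than in IRI by 1.17 (standard error 0.27, adjusted p = 0.00214) and than in Hemin by 1.85 (standard error 0.27, adjusted p = 4.17e-05). Ren2, which these mice lack and whose probe can only read related transcript, passed in no comparison.

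Of the other angiotensin-forming proteases, Cma2, a chymase gene related to Cma1, was lower in IRI (-1.66, with 1 of 4 IRI arrays above background, standard error 0.37, limma adjusted p = 0.00123) and IPC+IRI (-1.35, standard error 0.37, adjusted p = 0.00528) than in Control. It was also lower in IRI+Hemin than in Hemin by 1.02 (standard error 0.37, adjusted p = 0.0349). The flag was set on 4 of 4 arrays in Control and in Hemin, 1 of 4 in IRI and 2 of 4 in each other group. Ctsg, the cathepsin G gene, fell by 1.76 in IPC+IRI vs Control (standard error 0.49, adjusted p = 0.00527), on 2 and 3 of 4 arrays. Ctsa, the cathepsin A gene, was lower in IPC+IRI than in IRI (-0.56, adjusted p = 0.000374), in Control (-0.64, adjusted p = 5.72e-05) and in Hemin (-0.30, adjusted p = 0.0325), and in IRI+Hemin vs IRI (-0.36, adjusted p = 0.00979) and Hemin vs Control (-0.35, adjusted p = 0.0156).

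Among peptidases that degrade angiotensins or related peptides, Nln (neurolysin) fell by 0.90 in IPC+IRI vs IRI (standard error 0.16, limma adjusted p = 0.000283), 0.53 in IPC+IRI vs Control (adjusted p = 0.00943), 0.64 in IRI+Hemin vs IRI (adjusted p = 0.00384) and 0.60 in Hemin vs Control (adjusted p = 0.00818). Lnpep, the insulin-regulated aminopeptidase gene, fell in the same 4 comparisons by 0.41, 0.42, 0.36 and 0.36 (standard error 0.090 each, adjusted p = 0.00137, 0.000713, 0.00389 and 0.00494). Prep, the prolyl endopeptidase gene, was lower than in IRI by 0.45 in IPC+IRI (adjusted p = 0.0105) and 0.72 in IRI+Hemin (adjusted p = 0.000318). Rnpep, the aminopeptidase B gene, was lower than in Control by 0.43 in IRI (adjusted p = 0.0182) and 0.61 in IPC+IRI (adjusted p = 0.00152), and lower than in Hemin by 0.38 in IRI+Hemin (adjusted p = 0.0396) and 0.44 in IPC+IRI (adjusted p = 0.0222). Thop1, the thimet oligopeptidase gene, was higher in IRI+Hemin than in IRI by 0.32 (standard error 0.11, adjusted p = 0.0253). Atp6ap2 (the prorenin receptor gene), Klk1, Ctsb and Prcp passed in no comparison.

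**Figure D5:**
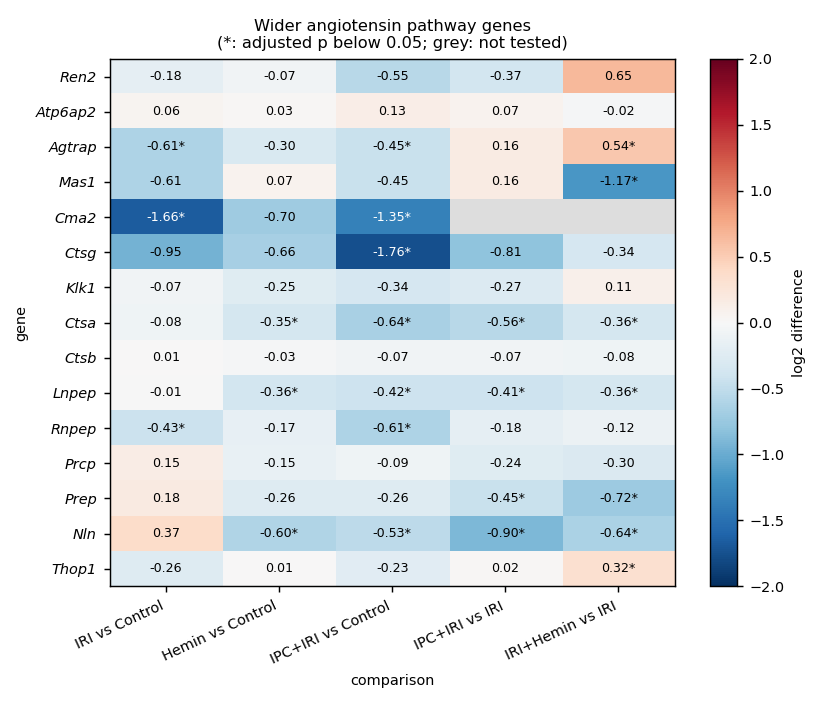
Log2 difference (colour and printed value) of 15 further pathway genes (y axis) in 5 comparisons (x axis), with an asterisk at a limma adjusted p below 0.05 and grey where a gene was not tested. Ctsa, Lnpep and Nln were lower in the 4 comparisons other than IRI vs Control, and Agtrap was lower in IRI and higher in IRI+Hemin vs IRI.

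Downstream of aldosterone, the steroid that angiotensin II releases, 8 response genes were all tested. In IRI vs Control 3 were higher and 2 lower, with a median of 0.37, and the largest called changes were rises of Sgk1 by 2.16 (standard error 0.40, limma adjusted p = 0.000259) and Nedd4l by 1.34 (standard error 0.21, adjusted p = 5.11e-05). In Hemin vs Control none was higher and 2 were lower (median -0.13), in IPC+IRI vs Control 4 were higher and 2 lower (0.25), in IPC+IRI vs IRI 2 were lower (-0.30) and in IRI+Hemin vs IRI 1 was higher and 2 lower (-0.16). Of the 10 renin cell and mural genes, 3 were higher and 1 lower in IRI vs Control. Mcam rose by 1.49 (standard error 0.22, limma adjusted p = 2.65e-05), Tagln by 0.84 (standard error 0.14, adjusted p = 8.4e-05) and Acta2 by 0.52 (standard error 0.11, adjusted p = 0.000983), while Gja5 fell by 0.74 (standard error 0.14, adjusted p = 0.000216). In the same comparison, 3 of 6 myeloid genes tested were higher and 0 lower. S100a8, above background on 2 of 4 Control arrays, rose by 4.03 (standard error 0.65, limma adjusted p = 6.86e-05), S100a9 by 3.66 (standard error 0.52, adjusted p = 1.9e-05) and Cd68 by 2.21 (standard error 0.31, adjusted p = 1.75e-05).

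The genes whose log2 expression was most like that of each member over the 20 arrays, taken from the 14531 other gene names detected on all arrays (14532 for Agtr1b and Cma1), are given as a description, since the arrays of a group share its treatment and slide. Ace was followed by Sod3 (Pearson r 0.975), Snrpn (0.973) and Shmt2 (0.973). Anpep was followed by Dclk2 (0.958), 9530058B02Rik (0.958) and Casc4 (0.954), and Enpep by Ppwd1 (0.929), Ccdc43 (0.926) and Plscr2 (0.926). For Ren1 the first was Ren2 (0.93), ahead of Wdr12 (0.741) and AF055908 (0.706). These mice lack Ren2, and its probe can only read related transcript, so that value does not describe a separate gene. Agt was closest to Napsa (0.847), Galt (0.842) and Tmem191c (0.837), and Mme to Uroc1 (0.885), Paics (0.877) and Banf1 (0.861). Agtr1b was closest to Prl3b1 (0.932), the unnamed probe A_52_P980916 (0.931) and E330017A01Rik (0.921), and Cma1 to Megf11 (0.959), ENSMUST00000037913 (0.939) and V1ri6 (0.938).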

How the data were processed

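The authors deposited intensity values as scanner output. Agilent Feature Extraction (9.5.3.1 in the headers) had background-subtracted and detrended every Cy3 spot, with nothing done between arrays. A log2 matrix of the same signal was deposited too, 18.1% of it blank, and served as an alternative. Uneven and outlying spots were dropped, saturated ones kept, and spots of a probe averaged. Each array was divided by the 75th percentile of its 43379 non-control spots, and probes of a gene name were averaged. A gene could lack at most 1 value in a comparison. The fit used limma 3.58.1 (R 4.3.3) over all 20 arrays with 5 group means and 15 residual degrees of freedom, and Benjamini-Hochberg adjustment over all genes tested. Values are mean ± SD over 4 arrays. In data simulated for each comparison, 200 genes changed by 2 on the log2 scale were recovered at 87% (interaction) to 97.5% (IRI+Hemin vs Hemin). The simulated noise was normal and independent between arrays, without an effect of slide or scan day. Smaller changes, such as most of those reported here, were not simulated, so their recovery is not known.

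The members and gene lists were chosen with earlier results of these data known. The text names the 9 genes, the further pathway genes called at least once, the 2 largest called changes in IRI vs Control of each marker list described, and the 3 most alike genes of each member detected on at least 16 arrays. Some further genes of the marker lists are named beside these, outside that rule. Of the pathway, 2 genes are not reported here. Alternatives changed the background correction, the normalization, the summary of probes, the filter and the arrays fitted, blocked on the replicate number, or left out each array in turn. Added after seeing the data were IPC+IRI vs Hemin and the fit of single probes, and IRI replicate 4 was singled out among the arrays left out in turn after its values were seen. A slide block could not be fitted. Motifs were sought in RefSeq windows of GRCm38.p6, and probe positions are those of the files on mm9.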

Additional observations from a re-analysis of the deposited data

Results flagged for a closer look

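Among the 40 sets of 4 arrays formed by 8 genes and 5 groups, 5 held an array whose gap to its nearest neighbour was large against the range of the set, by Dixon's test at the 95% level, which chance alone gives in about 1 of 20 sets. Agt read 2.45 on IRI replicate 4, where the others lay between 2.74 and 2.79, and 3.00 on Hemin replicate 3, where the others lay between 3.49 and 3.50. Agtr1b read -6.32 on IRI replicate 4, against -3.90 to -3.59 on the others. Anpep read 3.59 on Control replicate 2, against 4.13 to 4.22. Mme read 0.11 on IRI replicate 4, against 0.21 on each of the others. IRI replicate 4 accounts for 3 of the 5.

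The interaction of injury and Hemin passed the threshold in 2 of 8 genes, at 2.24 for Agtr1b (limma adjusted p = 0.0306) and at 1.62 for Cma1 (adjusted p = 0.00124). In IRI, Agtr1b was above background on 3 of 4 arrays and Cma1 on 1 of 4, and under normexp the values were 0.62 (adjusted p = 0.549) and 0.056 (adjusted p = 0.985). With IRI replicate 4 left out, the value for Agtr1b was 1.59 (adjusted p = 0.00638).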

How the results depend on the processing

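The 4 called falls of Ace, the falls of Agtr1b in IRI and in IPC+IRI against Control, and the falls of Anpep in IPC+IRI against IRI and against Control passed under every alternative in which they were tested. The counts of genes called also moved, and only the larger moves are listed below. Among those left out, IPC+IRI vs Control lost the calls of Cma1 and Mme with normexp (limma adjusted p = 0.164 and 0.0741). It lost those of Enpep and Mme without normalization between arrays (adjusted p = 0.43 and 0.962). IRI vs Control gained Enpep as lower under quantile normalization, scaling to probes detected on all arrays and the deposited matrix (adjusted p = 0.0106, 0.0114 and 0.00982). The larger moves were these. With normexp, the count lower was 1 in IRI vs Control, 2 in IPC+IRI vs IRI, 2 in Hemin vs Control and 1 in IRI+Hemin vs Hemin, and the count higher was 1 in IPC+IRI vs IRI, 2 in IRI+Hemin vs IRI, 1 in IRI+Hemin vs Hemin and 0 in the interaction. Cma1 in IRI vs Control turned to 0.0026. Without normalization between arrays, the count lower was 2 in IPC+IRI vs IRI, 1 in IRI+Hemin vs IRI, 2 in Hemin vs Control and 1 in IRI+Hemin vs Hemin, and the count higher was 1 in IPC+IRI vs IRI, 1 in IPC+IRI vs Control, 3 in IRI+Hemin vs IRI and 1 in the interaction. Enpep in Hemin vs Control turned to 0.10. With the deposited log2 matrix, 3 genes were lower in IPC+IRI vs Hemin, 1 was higher in IPC+IRI vs IRI and 1 in the interaction. In Hemin vs Control no gene (0) was higher under quantile normalization, without the filter, or with the 75th percentile of probes well above background on all arrays. With all arrays of the compared groups required above background, 0 were lower in IRI vs Control and 0 higher in the interaction, since fewer genes were tested. With only the compared arrays, 2 were lower in IPC+IRI vs Hemin. The cause of the other changes was not tested.

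With single arrays left out, the count higher ran from 0 to 1 in Hemin vs Control, in both comparisons of IPC+IRI with Control and IRI, and in IRI+Hemin vs Hemin, from 0 to 2 in IRI+Hemin vs IRI and from 1 to 2 in the interaction. The count lower ran from 0 to 1 in IPC+IRI vs Hemin and from 1 to 2 in IRI+Hemin vs Hemin. Moves of a count by up to 1.5 times are left out of these lists. With the replicate number as a block, 2 genes were higher in IRI+Hemin vs IRI, the second being Cma1 (0.45, limma adjusted p = 0.0412), and no other count moved beyond 1.5 times. Same-numbered arrays of different groups were not paired, since their deviations correlated from -0.38 to 0.21 and 7 of 40 pairs passed 0.1. Agtr2, Cma1 and Agtr1b lay near the background, which limits what can be read from their low groups.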
